A study of Homo sapiens with 12 samples.

Results

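The genes described here are ATF6, its paralog ATF6B, the site-1 and site-2 proteases that cut both proteins (MBTPS1 and MBTPS2), 4 further membrane-bound transcription factors cut in the same way (CREB3, CREB3L1, CREB3L2 and CREB3L4), and CREBZF, a leucine-zipper protein related to this family that binds CREB3. They were chosen by name as a pathway group, with earlier results of these data known, and all 9 are among the 21439 genes of the deposited table. The study used DU145, a human cell line from a prostate cancer that grows without androgen, and sequenced 12 RNA libraries, 3 for each of 4 groups. One pair of groups, the compound arm, was given 10 µM Ceapin-A7 (Ceapin) or its solvent alone (DMSO) for 12 h. The other pair, the siRNA arm, was transfected with ATF6 siRNA (siATF6) or Allstar control siRNA (siCtrl) and kept in culture for 24 h. All 4 groups also received 30 nM thapsigargin, which blocks the calcium pump of the endoplasmic reticulum (ER), for the last 3 h, so every value comes from ER-stressed cells of 1 line.

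ATF6 is made as a protein anchored in the ER membrane. Under ER stress it leaves in vesicles coated by COPII for the Golgi, where MBTPS1 cuts it on the luminal side and MBTPS2 then cuts it within the membrane, and the freed part enters the nucleus and turns on genes for chaperones and for ER-associated degradation. ATF6B and the CREB3 family follow the same route. Ceapin-A7 tethers the ATF6 protein to a peroxisomal membrane protein and so keeps it away from the proteases, whereas an siRNA lowers the mRNA. The comparisons ask how the mRNA of each of these genes responded to either way of reducing ATF6 function.

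Values are deposited read counts scaled to the depth of each library (CPM) with edgeR's TMM factors. Library totals ran from 17760878 to 19202632 counts. A gene was called where the Benjamini-Hochberg adjusted p of edgeR's two-sided quasi-likelihood test was under 0.05, with adjustment over the 17823 genes that passed a filter on low counts. Of the 9 genes, 8 passed that filter, and ATF6B did not. The labels do not say whether replicates came from separate cultures, so the p-values measure only the spread between these libraries, which may be technical. Of 5 epithelial markers all were present, with summed levels of 1338 to 1401 CPM in Ceapin, 1386 to 1426 CPM in DMSO, 444 to 473 CPM in siATF6 and 501 to 520 CPM in siCtrl. In siATF6 against siCtrl 4 of the 5 were called as falls, beside 15.3% of all tested genes. In Ceapin against DMSO 1 of the 5 was called as a fall (CDH1, log2 fold change −0.14, edgeR adjusted p = 0.00159), beside 2.41% of all tested genes. The part of these markers in the results below was not tested. KLK3 and KLK2, defining markers of androgen-dependent prostate cells, are not listed in the table, and 2 of 5 leukocyte markers are listed, with a sum of at most 1.05 CPM in any library. In bulk RNA, fewer cells of a type and less RNA per cell cannot be told apart.

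ATF6 (ENSG00000118217; GRCh38 chromosome 1, 161766294 to 161964070, + strand, protein-coding) checks the siRNA labels. The 3 siATF6 libraries held 26.6, 25.6 and 25.0 CPM of ATF6, against 123, 126 and 125 CPM in the 3 siCtrl libraries. All 3 siATF6 libraries lay far below all 3 siCtrl libraries. ATF6 mRNA in siATF6 stood at 20.7% of its siCtrl level (edgeR adjusted p = 9.37e-30), a log2 fold change of −2.27 with an SE of 0.0379.

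Ceapin-A7 left the ATF6 transcript where it was within the replicate spread. ATF6 stood at 73.2, 70.9 and 74.7 CPM in Ceapin and at 69.3, 73.3 and 71.5 CPM in DMSO, and these libraries overlap. The log2 fold change was 0.03, with a 95% interval of −0.04 to 0.10 (edgeR adjusted p = 0.748), which leaves room for only a small change of the mRNA. One field of the labels names the ATF6 siRNA for the Ceapin libraries and the control siRNA for the DMSO libraries, while titles and treatment text give only the compound or its solvent. An ATF6 level as high in Ceapin as in DMSO is the measurement that bears on that conflict.

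The solvent and control-siRNA groups differed from each other in ATF6. DMSO averaged 71.4 ± 1.99 CPM and siCtrl 124.6 ± 1.08 CPM (SD, n = 3 each). ATF6 in DMSO was thus at 57.3% of its siCtrl level (log2 fold change −0.80, SE 0.0316, edgeR adjusted p = 1.15e-20). Called genes made up 61.9% of all tested genes in this comparison of 2 control groups, and transfection, culture time, solvent and handling cannot be told apart in it. All 5 epithelial markers were called as rises in DMSO against siCtrl, beside 31.2% of all tested genes. Their log2 fold changes ran from 0.09 for KRT19 to 3.27 for CDH1 (median 1.49), and their part was not tested. This comparison describes how the arms differ and is not the effect of a treatment.

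**Figure D1:**
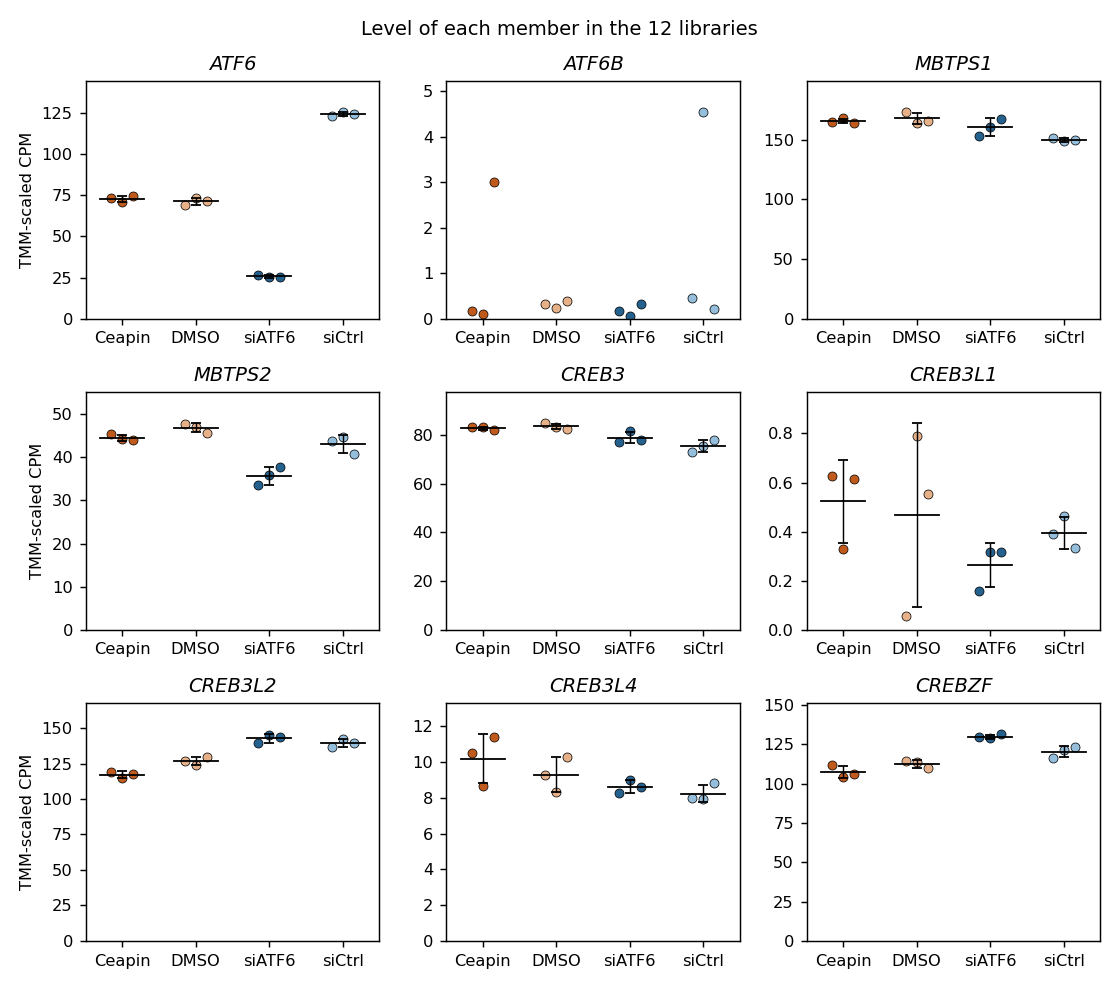
TMM-scaled CPM of the 9 genes in each library, with 1 panel per gene and its own linear axis from 0. Points are libraries, and horizontal lines and error bars are the mean and SD of 3 replicates, left out for ATF6B because its replicates of a group differed by up to 27-fold. The 3 siATF6 points of ATF6 lie near 26 CPM, apart from every other group, and the points of MBTPS1, CREB3, CREB3L2 and CREBZF lie close together in all 4 groups.

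No source used here gives the sequence of the siRNA, so its target site could not be located on the ATF6 transcript. The sequence GAGTCAT is shown because earlier results on these libraries picked it out as frequent in 3′ UTRs of genes that fell after the siRNA. It was found in the 3′ UTR of 20.7% of 2506 such genes, 4.04% of 2674 genes that rose and 8.55% of all 13464 tested genes whose 3′ UTR has 50 bases or more. These shares describe how the sequence was picked and are no test of it. Among the 9 genes, ATF6 and CREB3L2 hold it in the 3′ UTR, at 2 places each. The 4 places are printed with 30 bases of GRCh38 each, on the gene's strand, with the 7 matching bases in capitals.
ATF6, chr1:161962219-161962248, + strand: caatgttatgtGAGTCATtcttaagtgttc
ATF6, chr1:161962880-161962909, + strand: tcatcagtcctGAGTCATtttaacttacag
CREB3L2, chr7:137882563-137882592, − strand: ctcccccagagGAGTCATccagcccgggct
CREB3L2, chr7:137876667-137876696, − strand: tgccctcttgaGAGTCATtttatttggcca

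The matches lie in long 3′ UTRs, of 5416 bases in ATF6 and 6558 bases in CREB3L2 (GENCODE v29). ATF6 also holds 3 copies of the 6-base part AGTCAT there, and CREB3L2 holds 3 copies of AGTCAT or GAGTCA. ATF6 has 1 more match upstream of its 3′ UTR, and CREB3L2 has none there. MBTPS2, with a 3′ UTR of 3383 bases, holds neither the 7-base sequence nor a 6-base part, and the same holds for MBTPS1, CREB3, CREB3L1 and CREB3L4. ATF6B and CREBZF have 1 match each, both upstream of the 3′ UTR. The human promoter windows of RefSeq (GRCh38.p14, 250 bases before to 50 after a gene's start) were searched on both strands for motifs tied to this pathway. Windows of 1 chromosome, which carries none of the 9 genes, were left out of the search. The ER stress element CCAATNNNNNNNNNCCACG, which ATF6 binds together with NF-Y, was in 0.0769% of 35116 windows, and the 11 windows of the 9 genes held none. The ER stress element II, ATTGGNCCACG, was in 0.0541% of windows and in none of the 11. The core TGACGTG was in 1.97% of windows and in none of the 11. The shorter motif CCAAT alone was in 34.6% of windows and in 2 of the 11, those of ATF6B and CREB3L2.

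The proteases moved in opposite directions after the ATF6 siRNA. MBTPS2 (ENSG00000012174; chromosome X, 21839636 to 21885424, + strand, protein-coding), the site-2 protease, held 33.5, 35.8 and 37.6 CPM in siATF6 and 43.9, 44.7 and 40.8 CPM in siCtrl. The groups do not overlap, all siATF6 libraries being lower. The same lack of overlap, in either direction, was found for 41.4% of all tested genes in this comparison. MBTPS2 fell by 0.27 on the log2 scale (SE 0.0471, edgeR adjusted p = 1.88e-05). This call held with every library left out in turn and under every other setting tried. MBTPS2 shares 1093 exon bases with YY2, a gene on the same strand with a mean of 57.1 counts per library, so reads of that stretch can be split between them.

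MBTPS1 (ENSG00000140943; chromosome 16, 84053761 to 84116906, − strand, protein-coding), the site-1 protease that makes the first cut, held 153, 161 and 168 CPM in siATF6 and 152, 149 and 149.6 CPM in siCtrl. Every siATF6 library lay above every siCtrl library, the lowest by little. MBTPS1 rose by 0.10 on the log2 scale (SE 0.0292, edgeR adjusted p = 0.00807). Without siATF6 replicate 3 the log2 fold change was 0.06 and the call was lost (edgeR adjusted p = 0.133).

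Neither protease passed the test under Ceapin-A7. MBTPS2 held 45.4, 44.2 and 43.9 CPM in Ceapin and 47.7, 47.1 and 45.7 CPM in DMSO, with all Ceapin libraries lower (log2 fold change −0.07, 95% interval −0.17 to 0.02, edgeR adjusted p = 0.462). Libraries that do not overlap in this way were found for 20.6% of all tested genes in this comparison. MBTPS1 held 165, 168 and 164 CPM in Ceapin and 173, 165 and 166 CPM in DMSO, and the groups overlap (log2 fold change −0.02, 95% interval −0.08 to 0.04, edgeR adjusted p = 0.841).

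The effect of the siRNA minus that of Ceapin-A7 was tested directly. It was −0.20 for MBTPS2 (edgeR adjusted p = 0.0222) and 0.12 for MBTPS1 (edgeR adjusted p = 0.0344) on the log2 scale. Both calls were fragile. That of MBTPS2 was lost with DESeq2 (adjusted p = 0.0778) and without any 1 of 4 libraries, siATF6 replicate 1, siCtrl replicate 2, Ceapin replicate 1 or DMSO replicate 3 (edgeR adjusted p = 0.0533 to 0.0903). That of MBTPS1 was lost with library totals in place of TMM (edgeR adjusted p = 0.0787) and without any 1 of 6 libraries, siATF6 replicates 2 or 3, siCtrl replicate 2, Ceapin replicates 1 or 3, or DMSO replicate 1 (edgeR adjusted p = 0.0683 to 0.173).

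**Figure D2:**
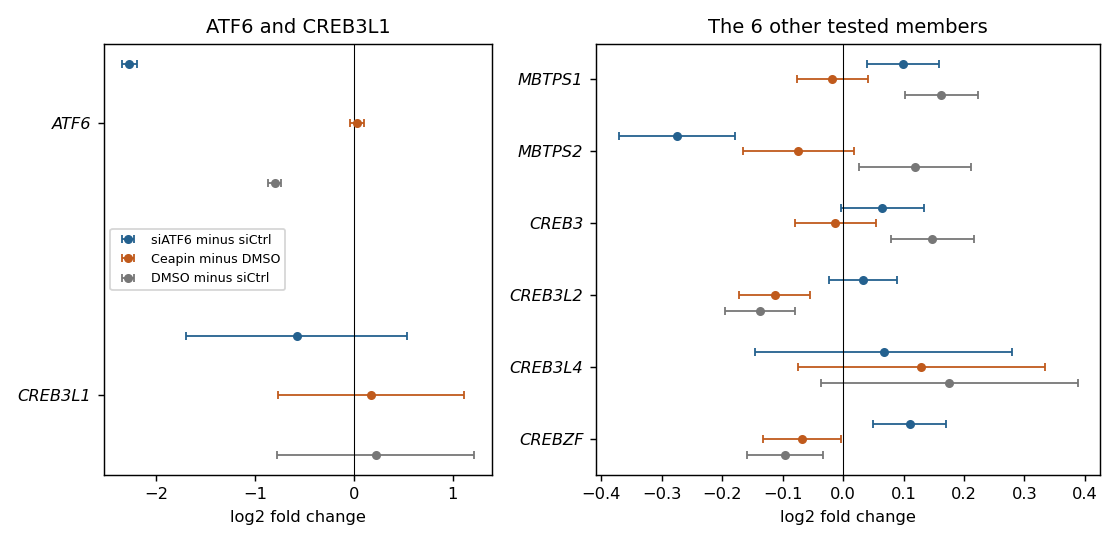
Log2 fold changes with 95% intervals from the edgeR fit, on the x axis, for the 8 tested genes. Blue is siATF6 minus siCtrl, orange is Ceapin minus DMSO and grey is DMSO minus siCtrl, and the left panel has a wider axis than the right. ATF6 stands apart at −2.27 after its siRNA, MBTPS2 is the other gene with a blue interval wholly below 0, and the widest intervals belong to CREB3L1.

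CREB3L2 (ENSG00000182158; chromosome 7, 137874979 to 138002067, − strand, protein-coding) encodes a transcription factor of the ER membrane that turns on genes of secretory transport, such as SEC23A in cartilage. It was the one gene of the 8 tested that was called under Ceapin-A7. It held 119, 115 and 118 CPM in Ceapin and 127, 124 and 129.6 CPM in DMSO. The 3 Ceapin libraries all lay below the 3 DMSO libraries. CREB3L2 fell by 0.11 on the log2 scale (SE 0.0289, edgeR adjusted p = 0.0155), and the call was lost without Ceapin replicate 2 (adjusted p = 0.11) or DMSO replicate 3 (adjusted p = 0.0993).

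After the ATF6 siRNA CREB3L2 held 139, 145 and 144 CPM, against 136, 142 and 139.6 CPM in siCtrl, and the groups overlap. The log2 fold change was 0.03 with a 95% interval of −0.02 to 0.09 (edgeR adjusted p = 0.42). The siRNA effect minus the Ceapin effect was 0.15 (edgeR adjusted p = 0.00623), and this call held in every alternative run. CREB3L2 is the one gene of the 9 whose RefSeq promoter window holds the palindromic cAMP response element TGACGTCA, found in 1.85% of searched windows. That stretch is shown because factors of the CREB and ATF family bind this element, which is in capitals (GRCh38.p14, gene strand).
CREB3L2 promoter, chr7:138002247-138002276, − strand: gagttcctcggTGACGTCAcagacactccc

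CREBZF (ENSG00000137504; chromosome 11, 85659708 to 85682908, − strand, protein-coding), also known as Zhangfei, encodes a nuclear protein that holds down CREB3 activity. It held 129, 129 and 131 CPM in siATF6, against 116, 122 and 123 CPM in siCtrl, with no overlap. CREBZF rose by 0.11 on the log2 scale (SE 0.0299, edgeR adjusted p = 0.00422). Without siCtrl replicate 1 the log2 fold change was 0.08 and the adjusted p was 0.0525. In the compound arm CREBZF held 112, 104 and 106 CPM in Ceapin and 114, 114 and 109.7 CPM in DMSO, with overlap (log2 fold change −0.07, 95% interval −0.13 to −0.004, unadjusted p = 0.0379, edgeR adjusted p = 0.274). The siRNA effect minus the Ceapin effect was 0.18 (edgeR adjusted p = 0.00218).

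CREB3 (ENSG00000107175; chromosome 9, 35732335 to 35737004, + strand, protein-coding), also called Luman, did not pass the test with either agent. It averaged 78.9 ± 2.34 CPM in siATF6 and 75.5 ± 2.38 CPM in siCtrl (SD, n = 3 each; log2 fold change 0.06, 95% interval −0.004 to 0.13, edgeR adjusted p = 0.152). It averaged 82.9 ± 0.626 CPM in Ceapin and 83.6 ± 1.18 CPM in DMSO (SD, n = 3 each; log2 fold change −0.01, 95% interval −0.08 to 0.05, edgeR adjusted p = 0.911). CREB3 shares 61 exon bases with TLN1 and 139 with GBA2 on the opposite strand, genes with a mean of 9111 and 1718 counts per library. The library kit keeps strand, and no source used here says whether the counting used it. The level of CREB3 is uncertain unless strand was used.

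CREB3L4 (ENSG00000143578; chromosome 1, 153967534 to 153974363, + strand, protein-coding), a family member known from the prostate epithelium, was low. It averaged 8.62 ± 0.384 CPM in siATF6 and 8.24 ± 0.488 CPM in siCtrl, and 10.2 ± 1.37 CPM in Ceapin and 9.29 ± 0.997 CPM in DMSO (SD, n = 3 each). Neither difference passed the test (edgeR adjusted p = 0.69 after the siRNA and 0.605 under Ceapin-A7), and the 95% intervals of the log2 fold changes, −0.15 to 0.28 and −0.07 to 0.33, leave room for changes larger than those called for MBTPS1 and CREBZF. CREB3L4 shares 280 exon bases with SLC39A1 and 95 with JTB on the opposite strand, genes with a mean of 5319 and 3875 counts per library, so its level is uncertain unless strand was used.

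CREB3L1 (ENSG00000157613; chromosome 11, 46277661 to 46321422, + strand, protein-coding), a family member known from bone and other collagen-secreting cells, was close to undetected. Its level was 0.159 to 0.316 CPM in siATF6 and 0.334 to 0.464 CPM in siCtrl, and 0.328 to 0.628 CPM in Ceapin and 0.0553 to 0.791 CPM in DMSO. The 95% interval of its log2 fold change ran from −1.70 to 0.54 after the siRNA and from −0.77 to 1.11 under Ceapin-A7 (edgeR adjusted p = 0.477 and 0.917). Changes of CREB3L1 were not detectable at this depth.

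ATF6B (ENSG00000213676; chromosome 6, 32115264 to 32128253, − strand, protein-coding), the paralog whose protein is cleaved in the same manner and turns on target genes less strongly, could not be measured from this table. Its deposited counts were 3, 1 and 6 in siATF6 and 8, 88 and 4 in siCtrl, and 3, 2 and 54 in Ceapin and 6, 4 and 7 in DMSO. The high values are 1 library each of siCtrl and Ceapin, and the spread within a group reached 27-fold. No fold change is given for it. Between 28 and 34 Mb of chromosome 6, a stretch that includes the major histocompatibility complex, 6 of 40 genes, ATF6B among them, with a count of at least 50 in some library differed 5-fold or more between replicates of a group, against 40 of 13309 genes elsewhere (0.301%). Of the annotated protein-coding genes 65 of 200 in that region are in the table (32.5%), against 14981 of 19751 elsewhere (75.8%). Of the listed genes near ATF6B, AGPAT1 was steady at 132 to 193 counts, while PBX2 ran from 16 to 133 counts. The cause was not tested.

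**Figure D3:**
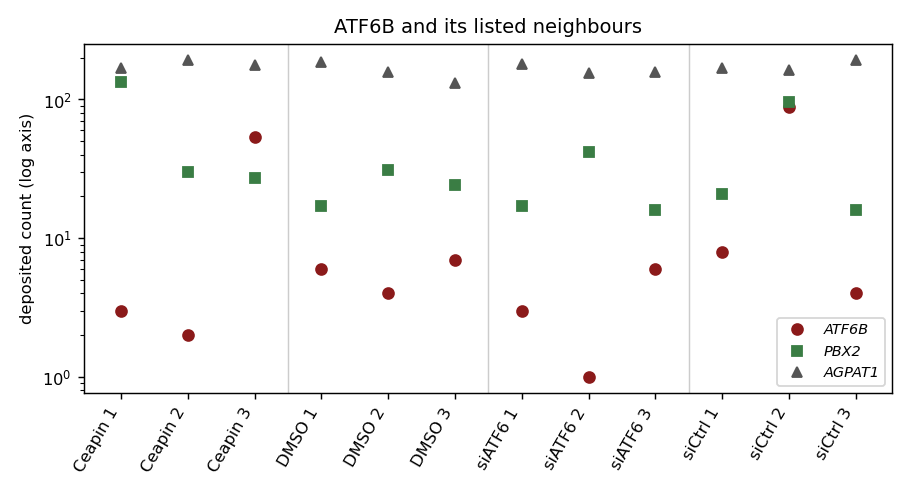
Deposited counts (log axis) of ATF6B and the nearby listed genes PBX2 and AGPAT1 in the 12 libraries, 1 point per gene and library, with vertical lines between groups. ATF6B lies between 1 and 8 counts in 10 libraries and at 54 and 88 in the other two, PBX2 also swings within groups, and AGPAT1 stays between 132 and 193.

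As a group, 4 of the 8 tested genes were called in siATF6 against siCtrl, with MBTPS1 and CREBZF up and ATF6 and MBTPS2 down, where 31.4% of all tested genes were called. In Ceapin against DMSO 1 of 8 was called, where the background was 4.62%. The difference between the effects was called for 5 of 8, where the background was 23.4%, and without siCtrl replicate 2 or Ceapin replicate 1 it was called for 3. In DMSO against siCtrl 6 of 8 were called, where the background was 61.9%, with MBTPS1 (log2 fold change 0.16), CREB3 (0.15) and MBTPS2 (0.12) higher in DMSO and ATF6 (−0.80), CREB3L2 (−0.14) and CREBZF (−0.10) lower in DMSO. The MBTPS2 call was lost with DESeq2, with library totals and without siCtrl replicate 3 or DMSO replicates 1 or 2. The median log2 fold change of the 8 genes was 0.05 after the siRNA and −0.02 under Ceapin-A7, beside −0.0003 and −0.001 over all tested genes. Outside ATF6, the changes called with either agent were at most 0.27 on the log2 scale in size. No test over the 8 genes together was made.

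Per length of exon, with the strand limit given above, CREB3 had the highest mRNA level of the 9 genes in all 4 groups. In siCtrl it stood at 39.7 ± 1.25 CPM per kb of exon, followed by CREBZF at 21.5 ± 0.614, CREB3L2 at 15.9 ± 0.339, ATF6 at 15.8 ± 0.137 and MBTPS1 at 14.7 ± 0.152 (SD, n = 3 each). CREB3L2 and ATF6 overlap in siCtrl, whereas MBTPS1 lies below both. MBTPS2 followed at 4.83 ± 0.230 and CREB3L4 at 2.84 ± 0.168 CPM per kb, and ATF6B and CREB3L1 lay below 0.5 on average. In siATF6 the ATF6 mRNA stood at 3.27 ± 0.103 CPM per kb, between MBTPS2 at 3.99 ± 0.235 and CREB3L4 at 2.97 ± 0.132. It stood at 9.24 ± 0.242 in Ceapin and at 9.05 ± 0.252 in DMSO, below CREB3L2 and above MBTPS2 in both. The order depends on the length used. Divided by the longest transcript instead of all exons, MBTPS1 came second in every group, with 34.6 CPM per kb in siCtrl. On average ATF6 then lay below MBTPS2 in Ceapin (9.73 against 9.98) and in DMSO (9.52 against 10.5). It also lay below CREB3L4 in siATF6 (3.44 against 4.92).

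**Figure D4:**
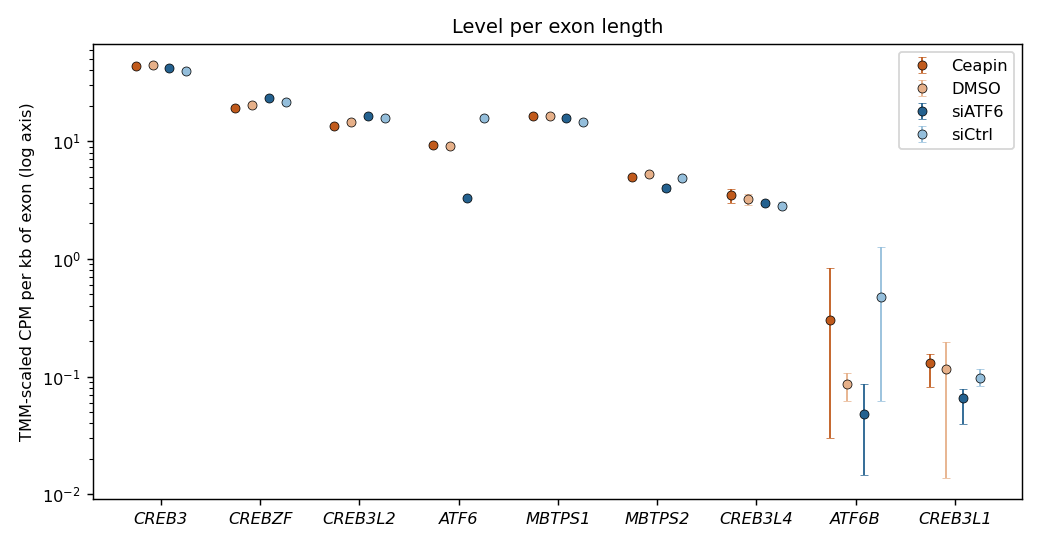
TMM-scaled CPM per kb of exon (log axis) for the 9 genes, ordered by their siCtrl level. Points are group means of 3 libraries and bars run from the lowest to the highest library. CREB3 is highest in all groups, MBTPS2 lies below MBTPS1 in all groups, and ATF6 is the one well-measured gene that changes place by a wide margin, at 3.27 in siATF6 and 15.8 in siCtrl.

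Factors that hold, reduce, escort or degrade the ATF6 protein come next. For this and the following lists, the background is 31.4% of all tested genes called after the siRNA and 4.62% under Ceapin-A7, with medians near 0, and a list's count near that share is not a result about the list. Of 10 such genes, 3 rose and 4 fell in siATF6 against siCtrl (median log2 fold change −0.04), and 4 fell in Ceapin against DMSO (median −0.08). SEL1L, the adaptor of the ubiquitin ligase complex that degrades ATF6, fell by 0.97 after the siRNA and by 0.30 under Ceapin-A7 (edgeR adjusted p = 1.79e-25 and 1.07e-10). HSPA5, the chaperone BiP that holds ATF6 in the ER, fell by 0.30 and by 0.64 (edgeR adjusted p = 4.61e-15 and 1.47e-22). CALR, a lectin chaperone that binds the glycosylated ATF6 protein, rose by 0.14 after the siRNA and fell by 0.19 under Ceapin-A7 (edgeR adjusted p = 4.46e-06 and 1.79e-07). SEL1L, HSPA5 and CALR are themselves ATF6 targets.

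TXNDC12 and PDIA5, which handle the disulfide bonds of ATF6, rose after the siRNA, where 16.1% of all tested genes were called as rises. TXNDC12, a thioredoxin-like ER protein, rose by 0.25 after the siRNA (98.6 ± 2.80 CPM in siATF6 and 82.8 ± 1.54 CPM in siCtrl; SD, n = 3 each; edgeR adjusted p = 8.07e-08). PDIA5, the disulfide isomerase that acts on ATF6, rose by 0.34 (22.4 ± 0.192 CPM in siATF6 and 17.7 ± 0.678 CPM in siCtrl; SD, n = 3 each; edgeR adjusted p = 1.96e-05). Both were at log2 fold changes of 0.01 under Ceapin-A7 (edgeR adjusted p = 0.968 and 0.97). SPRING1, a cofactor of MBTPS1, fell by 0.15 after the siRNA (173.5 ± 3.61 CPM in siATF6 and 193.0 ± 3.37 CPM in siCtrl; SD, n = 3 each; edgeR adjusted p = 1.1e-05). MBTPS1 moved the other way, by 0.10, a call lost without siATF6 replicate 3. Under Ceapin-A7 SPRING1 was at a log2 fold change of −0.09 (edgeR adjusted p = 0.0835). Its difference between the effects was not called (edgeR adjusted p = 0.261). PDIA5 and SPRING1 were named after their values were seen. ABCD3, the peroxisomal protein to which Ceapins tether ATF6, did not pass the test with the siRNA (log2 fold change 0.10, edgeR adjusted p = 0.0531) or with Ceapin-A7 (−0.03, edgeR adjusted p = 0.836).

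The COPII coat carries ATF6 to the proteases. Of its 11 genes, 3 rose and 2 fell after the siRNA (median log2 fold change 0.05), and 1 fell under Ceapin-A7 (median −0.04), beside the 31.4% and 4.62% of all tested genes called. SEC23B fell by 0.33 after the siRNA (edgeR adjusted p = 8.19e-11), and SEC24B fell by 0.08 (edgeR adjusted p = 0.0492). SEC24C rose by 0.14, SEC24D by 0.16 and SAR1B by 0.10 (edgeR adjusted p = 0.00119, 0.00146 and 0.0324). Under Ceapin-A7 SEC23A fell by 0.09 (edgeR adjusted p = 0.0216), a call lost without Ceapin replicates 1 or 2 or DMSO replicate 1. After the siRNA 3 of the 11 were called without siATF6 replicate 3 or siCtrl replicate 2, and 3 with DESeq2.

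MBTPS1 and MBTPS2 also cut the sterol-regulated factors SREBF1 and SREBF2. Another list held 7 genes, for other MBTPS1 substrates, the sterol escort and the INSIG proteins that retain it. After the siRNA 3 rose, 0 fell and 4 did not pass the threshold (median log2 fold change 0.06). Under Ceapin-A7 1 fell, which was INSIG1 (median of the 7 genes −0.06). INSIG1, which retains the escort of these factors in the ER, held 507, 491 and 511 CPM in siATF6 and 407, 393 and 403 CPM in siCtrl. It held 269, 273 and 279 CPM in Ceapin and 417, 406 and 411 CPM in DMSO. INSIG1 thus rose by 0.33 with one agent and fell by 0.59 with the other, with no overlap in either arm (edgeR adjusted p = 8.26e-14 and 8.94e-19). SREBF2 rose by 0.13 and SCAP, the escort, by 0.14 after the siRNA (edgeR adjusted p = 8.41e-05 and 0.00885).

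Textbook targets of the ATF6 protein fell with both agents. Of 15, 12 fell and 1 rose after the siRNA (median log2 fold change −0.24), and 14 fell under Ceapin-A7 (median −0.34). HERPUD1, a membrane component of ER-associated degradation, fell by 0.71 after the siRNA and by 0.78 under Ceapin-A7 (edgeR adjusted p = 2.78e-20 and 2.04e-20). HSP90B1, the ER chaperone GRP94, fell by 0.28 and by 0.41 (edgeR adjusted p = 2.52e-12 and 4.01e-15). Under Ceapin-A7 these falls accompanied an ATF6 mRNA at its DMSO level.

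Of the 6 tested genes of the IRE1 and PERK arms, 1 rose and 2 fell after the siRNA (median log2 fold change −0.08), and 2 rose and 1 fell under Ceapin-A7 (median 0.04). ERN1, the sensor IRE1, held 60.1, 56.9 and 58.8 CPM in siATF6 and 63.1, 70.2 and 66.3 CPM in siCtrl. It held 46.6, 44.2 and 43.2 CPM in Ceapin and 32.9, 31.0 and 31.8 CPM in DMSO. ERN1 fell by 0.19 after the siRNA and rose by 0.48 under Ceapin-A7 (edgeR adjusted p = 0.000414 and 1.31e-08). DDIT3, the factor CHOP, fell by 0.26 and by 0.35 (edgeR adjusted p = 1.22e-05 and 2.93e-06). ATF4 rose by 0.16 and by 0.12 (edgeR adjusted p = 1.01e-07 and 0.000132).

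Of 9 partners and reported transport targets of the CREB3 family, 2 rose after the siRNA and 0 fell (median log2 fold change 0.02), and 1 fell under Ceapin-A7 (median −0.02). The ones that rose were GBF1, a Golgi exchange factor, by 0.19 (edgeR adjusted p = 2.01e-06), and SEC24D, given above. Under Ceapin-A7 SEC23A was the one that fell, with the limits given for the COPII coat. A link to the fall of CREB3L2 was not tested, and both calls were lost without Ceapin replicate 2. Among 11 tested CREB and ATF factors outside the family, 5 rose and 3 fell after the siRNA (median 0.16), and 3 rose under Ceapin-A7 (median 0.12). ATF1 rose by 0.55 and ATF2 fell by 0.55 after the siRNA (edgeR adjusted p = 9.47e-13 and 9.33e-15). CREBL2 fell by 0.39 after the siRNA (edgeR adjusted p = 1.44e-06). Under Ceapin-A7 ATF4, CREB5 and JDP2 rose, CREB5 by 0.29 and JDP2 by 0.18 (edgeR adjusted p = 0.00763 and 0.0321), but without Ceapin replicate 1 the count was 1.

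ATF6 acts at the ER stress element with the trimeric factor NF-Y and with the cofactors YY1 and GTF2I. Of these 5 genes, 2 rose and 1 fell after the siRNA (median log2 fold change 0.08), and 1 fell under Ceapin-A7 (median −0.03). NFYB fell by 0.23 after the siRNA (edgeR adjusted p = 0.000386). YY1 rose by 0.09 after the siRNA and fell by 0.09 under Ceapin-A7 (edgeR adjusted p = 0.00337 and 0.0209), the fall being lost without Ceapin replicates 2 or 3 or DMSO replicates 1 or 3. GTF2I rose by 0.30 after the siRNA (edgeR adjusted p = 1.87e-06), though it has near-identical pseudogene copies between which reads could be split.

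The genes whose pattern over the 12 libraries was most like that of ATF6 were FITM2, VMA21, EXT2, EMC7 and ATL3, by Pearson's r of log2(CPM + 1) among 10883 genes that averaged 5 CPM or more. Their r values were 0.996, 0.993, 0.993, 0.992 and 0.992, over 12 points that fall into 4 groups and share the same libraries, so r mostly reflects the group means. VMA21, an assembly factor of the vacuolar proton pump, averaged 32.6 ± 0.778 CPM in siATF6 and 83.0 ± 1.99 CPM in siCtrl, and 61.9 ± 0.787 CPM in Ceapin and 65.4 ± 0.450 CPM in DMSO (SD, n = 3 each). FITM2, an ER protein needed for lipid droplets, averaged 18.1 ± 0.376 CPM in siATF6 and 33.7 ± 0.698 CPM in siCtrl, and 27.1 ± 0.468 CPM in Ceapin and 26.5 ± 0.0284 CPM in DMSO (SD, n = 3 each). The 3′ UTRs of FITM2, VMA21 and EMC7 hold GAGTCAT once each and that of ATL3 holds it 3 times, while that of EXT2 holds a 6-base part only. These 3′ UTRs have 3787 (FITM2), 4306 (VMA21), 317 (EMC7), 5232 (ATL3) and 1142 bases (EXT2). The share holding GAGTCAT was 8.55% over all tested genes with a 3′ UTR of 50 bases or more. Both the 5 genes and the sequence were picked through low levels in siATF6, so these matches are no test of the sequence. None of the 5 was among the 5 most alike by Spearman's rho.

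The other genes had less distinct companions. For MBTPS1 the most alike were SMARCC2, HROB and DEPDC5 (r = 0.964, 0.950 and 0.944), and SMARCC2 also ranked first by Spearman's rho (0.951). For MBTPS2 they were STS, AGPAT2 and RAB5C (r = 0.975, 0.967 and 0.958). For ATF6B the highest r was 0.844, with the pseudogene DNAJB6P1, followed by ZNF75D and FAM110A (0.796 and 0.759), and Spearman's rho for DNAJB6P1 was 0.273. The ATF6B counts were unstable, with 88 in siCtrl replicate 2 and 54 in Ceapin replicate 3, so its r values rest mostly on those libraries.

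**Figure D5:**
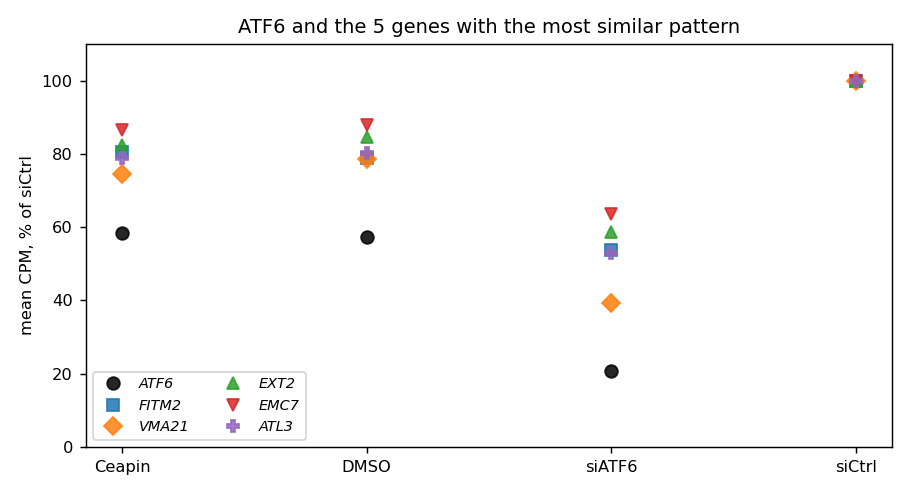
Group mean CPM as a percentage of the siCtrl mean (y axis, linear from 0) for ATF6 and the 5 genes most like it, in the 4 groups. ATF6 in siATF6 stands at 20.7% of siCtrl and in DMSO at 57.3%, and each of the 5 other genes is also lowest in siATF6 and highest in siCtrl, with smaller drops. Ceapin and DMSO lie side by side.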

How the data were processed

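RNA of 12 DU145 libraries was sequenced. Libraries were made with a stranded kit, per the labels' protocols, and the values were made with Salmon on hg38, per the submitters' processing notes, and no source used here gives versions or annotation. The authors deposited expected counts (estimated counts per gene) as whole numbers without depth scaling, none below 1, so genes at 0 in any library could not be analysed here. Columns named NC were matched to siCtrl by elimination and number.

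All 12 libraries were fitted with edgeR 4.0.16 in R 4.3.3 (filterByExpr by group, 3616 genes removed, 17823 tested), with TMM scaling and a term for each group, which leaves 8 residual degrees of freedom. Tested were siATF6 against siCtrl, Ceapin against DMSO, the difference of these effects and DMSO against siCtrl. Standard errors come from the F statistic. Precision rests on the spread between 3 replicates. Replicates of a group differed beyond sampling noise in their counts (chi-square per gene 1.39 to 1.82), so none was a duplicate. The pipeline was tested on simulated data. Alternatives were DESeq2 1.42.0, limma-voom (limma 3.58.1), other scalings and filters, a replicate block and each library left out. Symbols were found for 21201 genes; positions and 3′ UTRs are from GENCODE v29.

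The genes and the lists were chosen with earlier results of these data known. Named from each list were up to 4 genes by smallest p per comparison and any that made up a count of 2 or fewer in a direction; for likeness, the 5 (ATF6) or 3 (ATF6B, MBTPS1, MBTPS2) highest r. PDIA5, SPRING1, ABCD3 and the listed genes near ATF6B were added after their values were seen.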

Additional observations from a re-analysis of the deposited data

Results flagged for a closer look

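For these genes the effect of the siRNA minus that of Ceapin-A7 passed the edgeR test of the difference (adjusted p under 0.05), a call made for 23.4% of all tested genes. Among the 9 genes the differences on the log2 scale were −2.30 for ATF6 (adjusted p = 1.74e-25), 0.18 for CREBZF, 0.15 for CREB3L2, −0.20 for MBTPS2 and 0.12 for MBTPS1.

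Among the genes of the pathway lists the difference was above 0 for INSIG1 (0.92, adjusted p = 8.76e-21), SDF2L1 (0.72), ATF1 (0.47), HSPA5 (0.34), CALR (0.34), GTF2I (0.33), PDIA5 (0.33), DNAJB11 (0.32), TXNDC12 (0.25), MANF (0.24), SEC24C (0.23), ATF7 (0.22), SEC24D (0.20), SREBF2 (0.18), SCAP (0.18), YY1 (0.17), SYVN1 (0.17), HSP90B1 (0.13), GBF1 (0.12), SEC23A (0.10) and SAR1A (0.10, adjusted p = 0.0479). It was below 0 for SEL1L (−0.67, adjusted p = 9.73e-17), ERN1 (−0.67), ATF2 (−0.50), CREBL2 (−0.35), CREB1 (−0.34), SEC23B (−0.28), NFYB (−0.20) and XBP1 (−0.12). INSIG1, CALR, ERN1 and YY1 were called in opposite directions with the 2 agents.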

How the results depend on the processing

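Of 623 values of the members' fold changes under another setting, 596 kept their direction and their side of the threshold, 21 lost the call and 6 reversed. Leaving out 1 library gave 4861 to 5599 called genes in siATF6 against siCtrl, 578 to 846 in Ceapin against DMSO, 3763 to 4055 for the difference of the effects and 10475 to 11106 in DMSO against siCtrl. Of the 9 genes, 4 to 5, 0 to 1, 3 to 6 and 6 to 7 were then called in the same order. Without 1 library the filter admitted ATF6B in 10 of 12 fits, and these counts include its calls, which rest on its unstable counts. Of the 8 genes tested with all libraries, 3 to 4, 0 to 1, 3 to 5 and 5 to 6 were called. The 0 arose without Ceapin replicate 2 or DMSO replicate 3.

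The reversed values were near 0 or of CREB3L1. With 1 library left out, the fold change in Ceapin against DMSO ran from −0.034 to 0.0035 for MBTPS1 and from −0.36 to 0.77 for CREB3L1 (both reversed without DMSO replicate 1). The difference for CREB3L4 ran from −0.16 to 0.020 (reversed at 0.020 without Ceapin replicate 3 and at 0.009 without DMSO replicate 2). CREB3L1 in DMSO against siCtrl ran from −0.38 (without DMSO replicate 2) to 0.74 and was −0.32 with limma-voom. In DMSO against siCtrl the call of MBTPS2 was lost with DESeq2, with library totals and without siCtrl replicate 3 or DMSO replicates 1 or 2. The cause was not tested.

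Replicate numbers did not pair the libraries (correlations of same-numbered libraries −0.0861 to 0.0385). With the number as a replicate block 783 genes were called in Ceapin against DMSO, and 4, 1, 5 and 6 of the 9 genes in the 4 comparisons. Depth limits CREB3L1.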
